A study of Mus musculus with 16 samples.

Results

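The genes described here encode the subunits of oxidative phosphorylation. They were chosen by symbol among the protein-coding genes of both count tables, as names that begin with Nduf and a subunit letter and digit, the names Sdha to Sdhd, names that begin with Uqcr, Cox4 to Cox8 or Atp5, and the genes of the mitochondrial genome whose names begin with mt-Nd, mt-Co, mt-Atp or mt-Cyt. Of 57010 genes, 21848 of them protein-coding, 101 met this rule. They were 88 nuclear genes (39 of complex I, 4 of complex II, 8 of complex III, 19 of complex IV and 18 of complex V) and 13 mitochondrial genes (7 of complex I, 1 of complex III, 3 of complex IV and 2 of complex V). Complexes were assigned by symbol, so Ndufa4, which is now placed in complex IV, and its paralog Ndufa4l2 are counted in complex I throughout. The rule used no measured value. Ndufab1 falls outside it, since its letter is followed by another letter, and so does Cyc1, another gene of the respiratory chain.

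Mouse granulosa cells (mGCs), the somatic cells that surround the oocyte, were taken from female ICR mice primed with pregnant mare serum gonadotropin. The Con-mGC group was 5 libraries of freshly isolated cells from sham-operated mice. The EM-mGC group was 5 libraries of fresh cells from mice of the endometriosis (EM) model, in which endometrium of donor mice was sutured to the mesentery of recipients that kept their ovaries and received estradiol. The PBS group was 3 libraries of EM model mGCs kept in DMEM/F12 medium that contained 5% FBS. The EET group was 3 libraries of such cells that also received 100 nM 14,15-EET, an epoxide of arachidonic acid, for 24 h. The sample labels and the study's methods give 24 h of culture. A figure legend of the study instead gives 24 h of culture before any addition. By that legend, 14,15-EET or the same volume of PBS was then present for a further 24 h. Which of these times holds for the libraries could not be settled. The cultured cells were isolated from several EM mice and divided at random, the study's methods call the replicates paired without saying which libraries form a pair, and no cells of sham mice were cultured.

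Oxidative phosphorylation passes electrons from NADH through complex I, or from succinate through complex II, to complex III, cytochrome c and complex IV, where oxygen is reduced. The proton gradient built on the way drives complex V, the ATP synthase. Complex II is encoded wholly by nuclear genes, whereas the other complexes join nuclear subunits to subunits encoded by mitochondrial DNA, whose genes are transcribed as long polycistronic RNAs that are cut into separate messages. Granulosa cells begin steroid synthesis inside the mitochondrion, and they pass pyruvate to the oocyte.

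Fresh libraries held 14229123 to 15999234 counted reads and cultured libraries 21384686 to 29482826. Levels are counts per library size (CPM) after TMM normalisation over all 16 libraries, as mean ± SD, and differences are log2 fold changes from edgeR's quasi-likelihood test in each comparison, with p-values adjusted over all genes tested by Benjamini-Hochberg. Calls were made at an adjusted p under 0.05. EM-mGC-3 stood apart. Its mitochondrial genes took 21.4% of counts, against 6.64% to 10.9% in Con-mGC, and its summed red blood cell markers were at 14817 CPM, against at most 5365 CPM in the other EM-mGC libraries and 3246 to 5092 CPM in Con-mGC. Its leukocyte markers summed to 563 CPM, against at most 368 CPM in the other EM-mGC libraries, while its granulosa markers, at 9020 CPM, lay within the range of the group. The part of these markers in the results was not tested.

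Mitochondrial DNA has near-identical copies in the nuclear genome that are counted as genes of their own, and this bears on how far each mitochondrial value can be read. On the minus strand of chromosome 1, from 24650616 to 24655278 (GRCm39), 7 unprocessed pseudogenes lie in the order of the mitochondrial genes from mt-Co1 to mt-Nd4. In the GRCm38 transcripts, mt-Co2, mt-Co3, mt-Atp6 and mt-Nd4l matched Gm28661, Gm28437, Gm10925 and Gm10222 over the whole length of each copy without a mismatch, and mt-Nd3 matched Gm28438 with 1 mismatch in 345 bases. mt-Nd4 shared 876 of its 1378 bases with Gm28439 without a mismatch, and mt-Co1 shared 492 of its 1545 bases with Gm29216 with 6 mismatches. mt-Nd1, mt-Nd2, mt-Nd5, mt-Nd6, mt-Cytb and mt-Atp8 had no listed copy. mt-Atp8 nevertheless starts between mt-Co2 and mt-Atp6, whose matched parts lie 233 bases apart in both genomes. The first 80 bases of 2 of the genes are shown with their copies because no read that lies within the first pair can be assigned to one place by sequence, and the second pair differs by the base in capitals (T3C, the mitochondrial base first, counted from the start of mt-Nd3).
mt-Co3, chrM:8607-8686, plus strand: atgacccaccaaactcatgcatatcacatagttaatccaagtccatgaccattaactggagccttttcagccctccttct
Gm28437, chr1:24613892-24613971, minus strand: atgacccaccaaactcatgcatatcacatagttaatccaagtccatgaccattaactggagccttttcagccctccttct
mt-Nd3, chrM:9459-9538, plus strand: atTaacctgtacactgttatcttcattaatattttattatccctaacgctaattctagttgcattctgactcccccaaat
Gm28438, chr1:24613040-24613119, minus strand: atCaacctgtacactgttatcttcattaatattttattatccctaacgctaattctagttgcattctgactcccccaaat
These coordinates are those of GRCm38. The whole message of mt-Atp8 is shown because it shares its end with the start of mt-Atp6, in capitals, so that reads of these 43 bases match both genes.
mt-Atp8, chrM:7766-7969, plus strand: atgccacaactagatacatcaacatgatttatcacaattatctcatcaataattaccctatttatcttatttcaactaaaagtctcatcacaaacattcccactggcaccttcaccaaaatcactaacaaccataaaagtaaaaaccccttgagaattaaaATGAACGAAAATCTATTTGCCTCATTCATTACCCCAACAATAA

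The level per length was uneven along the mitochondrial genome. In Con-mGC the 5 genes with a whole copy were at 22.4 to 862 CPM per kilobase, and the genes with a part copy or no listed copy at 928 to 23258, apart from mt-Atp8. Among them mt-Co1, the catalytic subunit of complex IV, stood at 23258 CPM per kilobase, mt-Cytb of complex III at 11258 and mt-Nd1 of complex I at 9194, whereas mt-Co2 was at 862, mt-Atp6 at 379 and mt-Atp8 at 51.9 CPM per kilobase. mt-Co1 alone held 49.1% of the reads of the 13 genes in Con-mGC, 51.2% in EM-mGC, 53.2% in PBS and 52.8% in EET. The share of mt-Nd5 was 3.54% in Con-mGC and 3.37% in EM-mGC, and 13.9% in PBS and 13.6% in EET. Of the reads of mt-Atp6 and Gm10925 together, 45.0% to 54.3% were counted on the copy in Con-mGC, and for mt-Nd3 and Gm28438 this share was 59.4% to 73.9%. For mt-Co1 and Gm29216 it was at most 0.98% in any library. The levels of the 5 genes with a whole copy are therefore uncertain, and the reads of the copies were also added to their genes as a separate setting. This setting cannot restore reads that match both places if they were left uncounted, and how such reads were treated is not given.

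**Figure D1:**
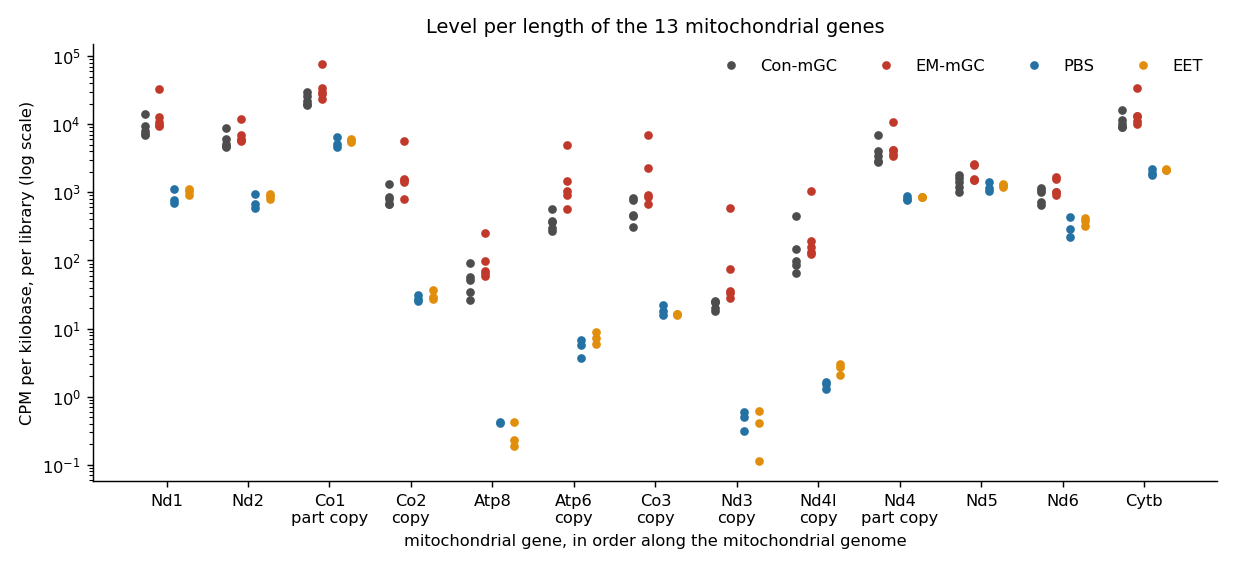
Level of the 13 mitochondrial genes in CPM per kilobase on a log axis, in their order along the mitochondrial genome; points are libraries, coloured by group, and the mt-Atp8 value of 0 in PBS-1 is not drawn. mt-Co1 is at 23258 CPM per kilobase in Con-mGC and 5402 in PBS, and the genes from mt-Co2 to mt-Nd4l are far lower than their neighbours, most of all in the cultured groups.

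Among nuclear subunits the highest levels per length in Con-mGC were those of Cox6a1 of complex IV, at 441 CPM per kilobase, and of Atp5a1, the alpha subunit of the ATP synthase, at 270. Uqcr10 led complex III at 87.9 and Sdha, the flavoprotein of complex II, led its complex at 69.9 CPM per kilobase. In EM-mGC, PBS and EET, Cox6a1 was at 553, 603 and 556 CPM per kilobase. Isoforms of complex IV that are known from heart and skeletal muscle or testis were low. Cox6a2 was at 0.416 ± 0.190 CPM in Con-mGC against 309.8 ± 33.4 CPM for its partner Cox6a1, Cox7a1 was at 2.94 ± 0.655 against 56.2 ± 5.12 CPM for Cox7a2, and Cox8b and Cox8c were at 0 in at least 4 of the 5 Con-mGC libraries. Cox6b2, the testis partner of Cox6b1, was read in every library, at 10.4 ± 1.82 CPM in Con-mGC, against 100.0 ± 14.0 CPM for Cox6b1. Of the 3 genes for the c subunit of the ATP synthase, Atp5g3 was highest at 408.7 ± 28.1 CPM, followed by Atp5g2 at 100.0 ± 7.95 and Atp5g1 at 57.0 ± 9.54 CPM in Con-mGC, and the order held in EM-mGC, PBS and EET. The second gene listed as Atp5o was not read in any library.

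The summed level of the nuclear subunits varied less between groups than that of the mitochondrial genes. Its means were 7957 ± 703 CPM in Con-mGC and 8931 ± 1294 in EM-mGC, and they were higher in culture, at 10997 ± 690 in PBS and 10643 ± 413 in EET. The nuclear sum was 8962, 8272, 7957, 7280 and 7316 CPM in the Con-mGC libraries and 8310, 8239, 11217, 8705 and 8184 CPM in EM-mGC. It was 11588, 10239 and 11163 CPM in PBS and 11118, 10430 and 10380 CPM in EET. The fresh groups overlapped, as did the cultured groups, and EM-mGC-3 was the only fresh library in the range of the cultured ones. The mitochondrial sum was 101205, 58718, 79657, 60875 and 68008 CPM in Con-mGC and 89984, 72449, 234830, 101928 and 81408 CPM in EM-mGC. In culture it was 13609, 18452 and 14986 CPM in PBS and 16176, 17741 and 17328 CPM in EET, so that every cultured library lay below every fresh one. The ratio of the mitochondrial to the nuclear sum was 7.10 to 11.3 in Con-mGC, 8.79 to 20.9 in EM-mGC, 1.17 to 1.80 in PBS and 1.45 to 1.70 in EET. These sums carry no test. In such bulk samples, fewer cells of a type and less RNA per cell cannot be told apart.

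**Figure D2:**
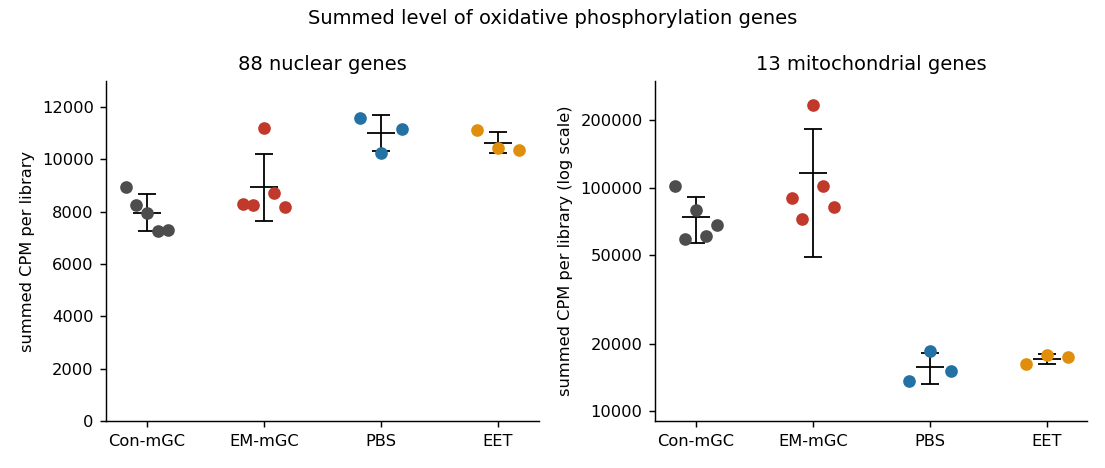
Summed level in CPM of the nuclear genes (linear axis) and of the mitochondrial genes (log axis), with 1 point per library and a bar at the mean ± SD of the group. The mitochondrial sum is at 58718 to 234830 CPM in fresh cells and at 13609 to 18452 CPM in cultured cells. The nuclear sum is at 7280 to 11217 CPM in fresh cells and at 10239 to 11588 CPM in cultured cells.

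The first comparison asks how granulosa cells of the EM model differ from those of sham mice. No subunit was called. Most nuclear subunits were slightly higher in EM-mGC, with a median log2 fold change of 0.22 over the 82 that passed the filter on low counts, against -0.01 over all 17229 genes tested, and 75 were higher and 7 lower, where 48.2% of all genes were higher. Without EM-mGC-3 the median of the nuclear subunits was 0.11, with 62 higher and 20 lower, and the median of all genes tested was -0.01. The 6 that did not pass the filter were the second Atp5o, Cox6a2, Cox7b2, Cox8b, Cox8c and Ndufb11b. Of all genes tested, 0% were called higher and 0% lower by edgeR, while 5.22% were higher and 4.22% lower at an unadjusted p under 0.05. At that level 24 nuclear subunits were higher and 0 lower. Without EM-mGC-3, 9 of 82 were higher and 0 lower, where 1440 of 17554 genes passed that level in either direction. Marker genes of some other cells differed between the groups at that level. All 4 neutrophil markers were higher in EM-mGC at an unadjusted p under 0.05, and their median log2 fold change was 2.93. They summed to 34.7 to 155.6 CPM in EM-mGC against 5.59 to 49.8 CPM in Con-mGC, and edgeR called none of them. At that level 2 of 4 stromal and 2 of 4 endothelial markers were lower, with medians of -0.38 and -0.46. Of the 4 stromal markers, 1 had a log2 fold change over 0. Also at that level, 1 of 4 leukocyte markers was higher and 1 of 3 smooth muscle markers was lower. Of the theca, red blood cell, oocyte and surface epithelium markers, 0 passed it. The part of these markers in the subunit values was not tested. DESeq2 called 64 genes higher and 49 lower, among them 1 subunit (mt-Atp6).

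By complex, the median log2 fold change in EM-mGC was 0.22 for complex I (36 of 38 higher), 0.16 for complex II (3 of 4), 0.31 for complex III (7 of 8), 0.27 for complex IV (12 of 15) and 0.20 for complex V (17 of 17). Without EM-mGC-3 these medians were 0.11 (31 of 38 higher), 0.05 (3 of 4), 0.21 (5 of 8), 0.20 (12 of 15) and 0.099 (11 of 17). In 5 nuclear subunits every EM-mGC library lay above every Con-mGC library, where 0.987% of all genes did so and 0.743% lay below. They were Cox4i1, Cox7c and Cox5b-ps of complex IV, Uqcrh of complex III and Atp5g2 of complex V. Cox4i1, the largest nuclear-encoded subunit of cytochrome c oxidase, was at 246.7, 232.4, 208.9, 214.4 and 213.7 CPM in Con-mGC and at 267.7, 249.4, 357.3, 297.4 and 271.1 CPM in EM-mGC, a log2 fold change of 0.36 (SE 0.11, adjusted p = 0.437 by edgeR) that was 0.28 without EM-mGC-3. Uqcrh, the hinge protein of complex III, was at 83.3, 88.1, 85.4, 81.2 and 78.8 CPM in Con-mGC and at 97.3, 107.1, 154.8, 104.6 and 93.7 CPM in EM-mGC. Its log2 fold change of 0.41 (SE 0.13, adjusted p = 0.437 by edgeR) was 0.26 without EM-mGC-3. Cox5b-ps shares sequence with Cox5b, so its log2 fold change of 0.46 is uncertain. The lowest adjusted p of a nuclear subunit was 0.412.

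The largest nuclear difference was that of Ndufs5, an accessory subunit of complex I. It was at 33.2, 39.9, 41.0, 17.3 and 32.8 CPM in Con-mGC and at 35.2, 47.0, 56.1, 57.7 and 50.9 CPM in EM-mGC, with a log2 fold change of 0.58 (SE 0.21, adjusted p = 0.466 by edgeR). The groups overlapped, and Con-mGC-4 was the lowest library. Cox5b-ps followed, and then Ndufb1 at 0.44 on the log2 scale, which was 0.25 without EM-mGC-3. The lowest were Cox6b2 at -0.25, Sdha at -0.15 and Ndufs1, the largest subunit of complex I, at -0.10.

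All 13 mitochondrial genes had a positive log2 fold change in EM-mGC, with a median of 0.72, and none was called by edgeR. At an unadjusted p under 0.05, 5 were higher and 0 lower. Without EM-mGC-3 the median was 0.31, with 11 higher and 2 lower (mt-Nd4 at -0.05 and mt-Nd4l at -0.16). The 4 largest values were those of mt-Nd3, mt-Atp6, mt-Co3 and mt-Co2, all with a whole copy on chromosome 1. mt-Nd3, a subunit of complex I, was at 8.51, 6.41, 6.94, 8.47 and 8.72 CPM in Con-mGC and at 25.8, 9.70, 206.7, 12.6 and 11.6 CPM in EM-mGC, the only mitochondrial gene without overlap between the groups. Its log2 fold change was 2.76 (SE 0.81, adjusted p = 0.418 by edgeR), 0.92 without EM-mGC-3 and 1.88 with the reads of the copy added. mt-Atp6, a subunit of the membrane part of the ATP synthase, was at 246.1, 261.4, 206.9, 183.3 and 393.8 CPM in Con-mGC and at 719.8, 393.1, 3339, 988.8 and 626.2 CPM in EM-mGC. EM-mGC-2 lay just below the highest Con-mGC library, and the others lay above it. The log2 fold change of mt-Atp6 was 2.23 (SE 0.51, adjusted p = 0.348 by edgeR), 1.40 without EM-mGC-3 and 1.87 with the copy added, and DESeq2 gave an adjusted p of 0.0226. mt-Co3 was 2.02 higher on the log2 scale and mt-Co2 1.34 higher, which were 1.05 and 0.62 without EM-mGC-3. The genes without a whole copy, apart from mt-Atp8 at 1.05, were between 0.30 (mt-Nd2) and 0.72 (mt-Co1).

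**Figure D3:**
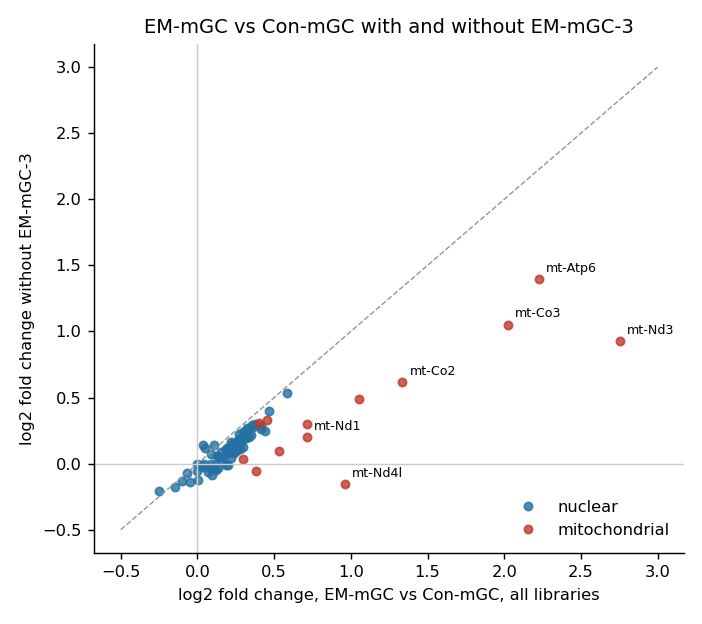
Log2 fold change of each tested subunit in EM-mGC against Con-mGC with all libraries (horizontal) and without EM-mGC-3 (vertical), nuclear and mitochondrial genes marked apart. The medians move from 0.22 to 0.11 for nuclear and from 0.72 to 0.31 for mitochondrial genes.

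The second comparison asks what 14,15-EET changes in cultured mGCs of EM mice. None of the 81 nuclear and 11 mitochondrial subunits tested was called by edgeR or by DESeq2 (0 subunits), although 75 genes of 15050 rose and 109 fell, which is 0.498% and 0.724%. Nuclear subunits had a median log2 fold change of -0.06, with 23 higher and 58 lower, where 50.4% of all genes were higher. Complex IV was lower in 14 of 15 subunits, with a median of -0.12, and complexes I, II, III and V had medians of -0.05, -0.01, -0.05 and -0.02. At an unadjusted p under 0.05, 2 nuclear subunits were higher and 3 lower, where 6.03% and 6.38% of all genes were. Those higher were the complex I subunits Ndufs1 and Ndufv2, and those lower were Ndufb7 of complex I, Atp5j2 of complex V and Cox5a of complex IV.

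Ndufv2, a subunit of the NADH-binding part of complex I, was at 61.8, 64.5 and 58.2 CPM in PBS and at 68.2, 67.7 and 69.0 CPM in EET. Its log2 fold change was 0.16 (SE 0.06, adjusted p = 0.266 by edgeR). Ndufs1 was at 102.6, 106.6 and 107.1 CPM in PBS and at 115.5, 111.3 and 120.3 CPM in EET, with a log2 fold change of 0.14 (SE 0.05, adjusted p = 0.259 by edgeR). In both genes every EET library lay above every PBS library, as in 8.06% of all genes. In Atp5h of complex V every EET library lay below, as in 9.23% of all genes. Ndufb7 was at 124.3, 89.2 and 113.8 CPM in PBS and at 98.2, 89.5 and 94.8 CPM in EET. PBS-2 was its lowest library, below every EET library, and the log2 fold change was -0.20 (SE 0.09, adjusted p = 0.394 by edgeR). Atp5k of complex V had the lowest value, at -0.32.

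These results turned on PBS-2. Without it, 6 nuclear subunits fell by edgeR's test, which were Atp5j2 (-0.27), Atp5k (-0.51), Cox7c (-0.31), Ndufb10 (-0.27), Ndufb7 (-0.33) and Uqcrq (-0.27), and 3 mitochondrial genes rose, which were mt-Nd1 (0.48), mt-Nd2 (0.47) and mt-Nd6 (0.57). Calls over all genes also rose without it, to 1.45% higher and 1.39% lower of 15351 genes. With all libraries, 11 mitochondrial genes were tested, with a median of 0.16 and 10 higher, and mt-Nd3 and mt-Atp8 did not pass the filter. At an unadjusted p under 0.05, 1 of them was higher and 0 lower. This was mt-Nd4l, which had the largest value, 0.81 (SE 0.33, adjusted p = 0.345 by edgeR), from 7 to 11 reads per PBS library and 16 to 21 per EET library. mt-Nd1 was at 662, 1079 and 745 CPM in PBS and at 875, 1058 and 996 CPM in EET, so that PBS-2 was the highest of the 6 libraries.

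The rule covers cultured and fresh cells of the EM model alike, so PBS was also set beside EM-mGC. Culture, experiment and sequencing cannot be told apart in this comparison, and the makeup of the cells changed with it. Summed granulosa markers were at 5367 to 5967 CPM in PBS and at 4789 to 16327 CPM in EM-mGC, and 8 of 9 fell. Markers of red blood cells were at most 0.219 CPM in PBS, and all 4 neutrophil markers were at 0. Of 3 smooth muscle markers, Acta2 rose, at 624.7 CPM in PBS against 131.5 CPM in EM-mGC, and Des and Myh11 fell. All 4 endothelial, all 4 leukocyte and 3 of 4 stromal markers fell. Their part in the differences was not tested. Of 17301 genes, 31.1% rose and 37.9% fell in PBS, with a median of -0.11, and 46.1% had a log2 fold change over 0.

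All 13 mitochondrial genes fell, and in each of them every PBS library lay below every EM-mGC library, as in 34.2% of all genes, where 32.2% lay above. The median log2 fold change was -4.16, and -3.64 without EM-mGC-3. The 5 genes with a whole copy had a median of -7.81, the 2 with a part copy -2.79 and the 6 with no listed copy -3.21, a division of the genes that was made after the values were seen. mt-Co1 was at 45964, 36183, 118581, 52923 and 42709 CPM in EM-mGC and at 7176, 9855 and 8006 CPM in PBS, a log2 fold change of -2.86 (SE 0.50, adjusted p = 0.000633 by edgeR). mt-Nd5 fell least, from 2794, 2793, 4692, 4515 and 2814 CPM to 1891, 2546 and 2080 CPM, with a log2 fold change of -0.72 (SE 0.26, adjusted p = 0.0308 by edgeR). mt-Nd6, the only one of the 13 encoded on the light strand, fell by 2.001 on the log2 scale, and mt-Nd1 by 4.16.

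mt-Atp6 fell from 393.1 to 3339 CPM in EM-mGC to 2.56, 4.70 and 3.95 CPM in PBS, with a log2 fold change of -8.37 (SE 0.95, adjusted p = 3.78e-05 by edgeR), and of -8.24 with the reads of the copy added. mt-Atp8 had 4 reads in the 3 PBS libraries together. Its level in EM-mGC was 414 times that in PBS, with a 95% Poisson interval of 162 to 1520 that covers counting error in PBS only. For mt-Nd3, with 11 reads, the ratio was 363 (203 to 727). Both ratios set the mean CPM of EM-mGC against pooled PBS reads per library size without TMM factors. The means include EM-mGC-3, at 206.7 CPM for mt-Nd3 (others 9.70 to 25.8) and 50.8 CPM for mt-Atp8 (others 11.9 to 20.3). mt-Co3 fell by 6.99 and mt-Co2 by 6.32 on the log2 scale. Adding the reads of the copies left mt-Co3 at -7.00 and mt-Nd3 at -7.58, and a list of 6 of the copies had a median log2 fold change of -6.89, and all 6 fell.

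Nuclear subunits moved both ways. Of 82 tested, 34 rose and 12 fell, where 31.1% of all genes rose and 37.9% fell. The median log2 fold change of the 82 was 0.16, against -0.11 over all genes tested. In 30 of the 82 every PBS library lay above every EM-mGC library, and in 15 below, where 32.2% of all genes lay above and 34.2% below. Without EM-mGC-3, 45 rose and 13 fell, where 33% of all genes rose and 39.3% fell. Among the complexes, 15 rose and 8 fell in complex I, 2 and 0 in complex II, 4 and 0 in complex III, 7 and 2 in complex IV and 6 and 2 in complex V. Cox5a, a subunit of complex IV on chromosome 9 from 57428557 to 57439709, was at 51.4, 47.7, 67.2, 60.1 and 45.9 CPM in EM-mGC and at 160.3, 138.6 and 147.3 CPM in PBS. It rose by 1.43 on the log2 scale (SE 0.14, adjusted p = 1.51e-05 by edgeR), the largest rise of a subunit. Atp5d, the delta subunit of the ATP synthase, was at 117.1, 103.7, 171.7, 125.0 and 118.5 CPM in EM-mGC and at 334.4, 241.8 and 294.6 CPM in PBS and rose by 1.16 (SE 0.18, adjusted p = 0.000237 by edgeR). Uqcrfs1, the Rieske iron-sulphur protein of complex III, rose by 0.88, and Ndufa11, Ndufa4 and Uqcrq rose by 0.85, 0.81 and 0.80.

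**Figure D4:**
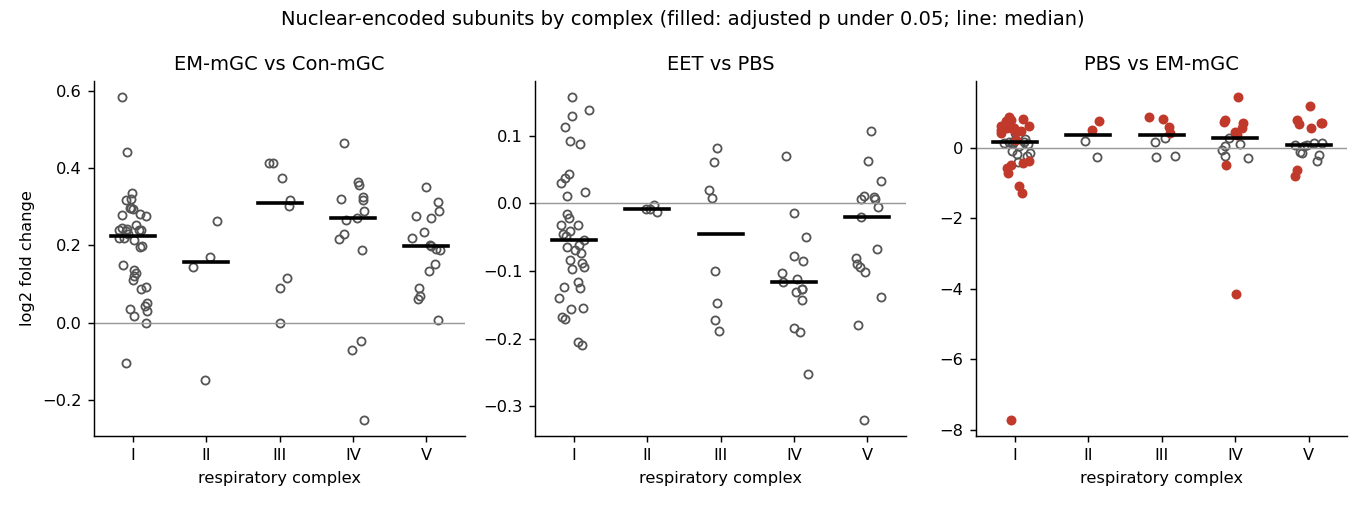
Log2 fold change of each nuclear subunit by complex, with 1 panel per comparison; filled points are genes with an adjusted p under 0.05 and lines are medians. Filled points appear only for PBS against EM-mGC, where 34 lie above 0 and 12 below. Of all genes in that comparison, 31.1% rose and 37.9% fell.

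The 2 nuclear subunits that fell furthest were isoforms. Ndufa4l2 (chromosome 10, 127350836 to 127353023), a paralog of Ndufa4 known as a target of hypoxia signalling, was at 7.76 ± 2.25 CPM in EM-mGC and had 0, 2 and 0 reads in PBS and 1, 0 and 1 in EET. The ratio of EM-mGC to PBS, formed as for mt-Atp8, was 291, with a 95% Poisson interval of 80.5 to 2401 that covers counting error in PBS only. Its partner Ndufa4 rose by 0.81 on the log2 scale. Cox4i2 (chromosome 2, 152596093 to 152606957), the isoform of Cox4i1 that is known to be induced by low oxygen in lung and vessel wall, was at 9.04, 17.2, 11.95, 2.38 and 8.13 CPM in EM-mGC and at 0.491, 0.702 and 0.458 CPM in PBS, a log2 fold change of -4.14 (SE 0.61, adjusted p = 0.000214 by edgeR). Cox4i1 rose by 0.69 (SE 0.15, adjusted p = 0.00219 by edgeR). In Con-mGC both isoforms were present, Cox4i2 at 10.0 ± 3.54 CPM and Ndufa4l2 at 7.09 ± 1.67 CPM, and between EM-mGC and Con-mGC their log2 fold changes were -0.05 (SE 0.40) and 0.12 (SE 0.23), neither of them called.

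**Figure D5:**
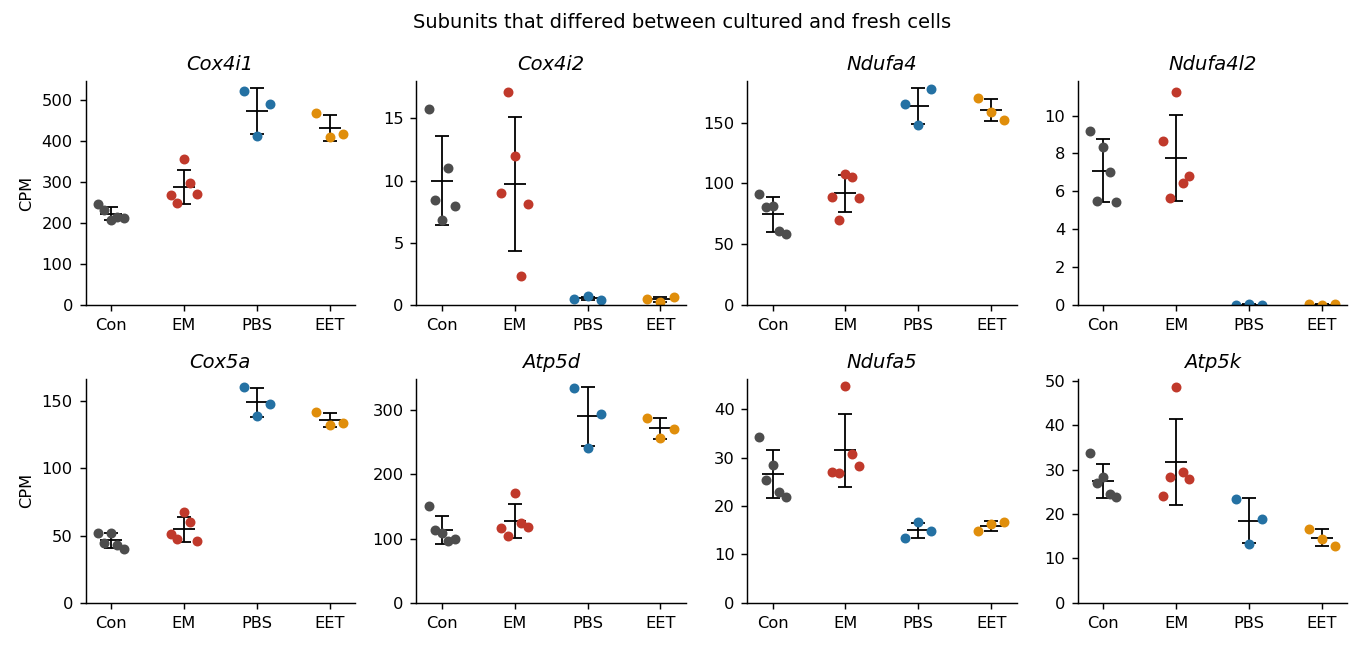
CPM of nuclear subunits that differed between PBS and EM-mGC, by group, with 1 point per library and a bar at the mean ± SD. Cox5a is higher in PBS and EET than in both fresh groups, and Cox4i2 is below 1 CPM in every cultured library.

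Other subunits that fell were Ndufb2 by 1.29, Ndufa5 by 1.09, Atp5k by 0.80 and Ndufb9 by 0.73 on the log2 scale. Ndufa5, an accessory subunit of complex I, was at 27.1, 26.8, 44.7, 30.7 and 28.2 CPM in EM-mGC and at 13.4, 16.6 and 14.9 CPM in PBS. Ndufb2 overlaps Gm42420 and Ndufb9 overlaps Gm49356, both on the same strand, so their reads are uncertain. In all, 19 subunits overlapped another gene on the same strand. Over the 71 tested nuclear subunits without such an overlap, 31 rose and 10 fell, where 31.1% of all genes rose and 37.9% fell. Cox6b1 was near the threshold, with a log2 fold change of 0.36 and an adjusted p of 0.0467 by edgeR.

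Genes that build or feed the respiratory chain were counted in fixed lists, of which none held a gene called by edgeR in EM-mGC against Con-mGC (0 of 149 tested, 7 higher and 3 lower at an unadjusted p under 0.05) or in EET against PBS (0 of 146, 8 higher and 6 lower). At that unadjusted level 5.22% of all genes were higher and 4.22% lower in the first of these comparisons, and 6.03% and 6.38% in the second. In PBS against EM-mGC, where 31.1% of all genes rose and 37.9% fell, 21 of 47 tested assembly factors rose and 4 fell. Cox11, which places copper in complex IV, rose by 1.31, Timmdc1, a complex I assembly factor, rose by 0.94, and Ndufaf2, another such factor, fell by 1.21. Of 26 genes of mitochondrial DNA maintenance and transcription 7 rose and 8 fell. Polrmt, the mitochondrial RNA polymerase, rose by 0.45 and Tefm, its elongation factor, by 1.00, and Slirp, which with Lrpprc stabilises mitochondrial messages, rose by 1.86, while Ssbp1, the single-strand binding protein, fell by 0.74. Tfam, which packages mitochondrial DNA, had a log2 fold change of 0.13 (SE 0.11, adjusted p = 0.314 by edgeR). Of 16 regulators of mitochondrial biogenesis 5 rose and 5 fell, among them Esrra, which rose by 1.53, and Ppargc1a and Esrrb, which fell by 1.90 and 6.54. In the remaining lists 6 of 21 genes of electron carriers and other parts of the respiratory chain rose and 2 fell. Of the tricarboxylic acid cycle 9 of 17 genes rose and 2 fell, and of glycolysis and lactate 8 of 22 rose and 7 fell. Idh3a of the cycle rose by 1.51 and Hk2, a hexokinase, by 2.66.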

How the data were processed

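The members and gene lists were chosen with earlier results of these data known. Per the labels and methods, poly(A) RNA was sequenced from a stranded kit on both ends of each fragment, and the submitters' processing notes name fastp, HISAT2, StringTie and GRCm39. The authors deposited raw read counts per Ensembl gene from featureCounts, without normalization. Its strand setting, its treatment of reads matching several places, and all versions are not given in the sources used here. Both tables were joined by gene identifier, and 0 columns were left unused.

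Each comparison was fitted on its own groups with edgeR 4.0.16 in R 4.3.3 (filterByExpr, TMM, quasi-likelihood test, Benjamini-Hochberg over all genes tested). P-values measure the spread between the deposited libraries, and no 2 libraries agreed within sampling noise. Printed CPM use TMM factors over 16 libraries. Lengths and sequences came from GENCODE M21 (GRCm38), in which the mitochondrial genes have the deposited coordinates. The limit for a copy to count as whole was set after the data were seen. The code was tested on simulated counts. Only 69 of 88 nuclear subunits (78.4%) have an entry in the promoter table, so a promoter check is void and none was made.

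Named genes were those called in a comparison (with over 12 nuclear calls, the 6 largest in each direction), the 3 highest and lowest nuclear log2 fold changes, the 13 mitochondrial genes, the highest per length in each complex and the isoforms. Some results are not reported here. Subunits whose groups did not overlap, those with an unadjusted p under 0.05 and single genes of the lists were named after their values were seen. The alternatives were DESeq2 1.42.0, RLE factors, library sizes without mitochondrial genes, every gene with at least 1 read, at least 10 reads in every library, the replicate number as a block, and leaving out each library. Adding the reads of the copies, and the genes without a listed copy alone, were chosen after seeing the data.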

Additional observations from a re-analysis of the deposited data

Results flagged for a closer look

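In groups of 5 libraries, 27 of 111 sets of values had 1 library whose gap to the next exceeded Dixon's limit of 0.71 of the range, where chance flags about 1 in 20. EM-mGC-3 was the highest library in 21 of them. In its sums it stood at 11217 CPM for nuclear subunits (others at most 8705), at 234830 CPM for mitochondrial genes (others at most 101928), and at a ratio of 20.9 (others at most 11.7). Among mitochondrial genes it stood at 3339 CPM for mt-Atp6, 50.8 for mt-Atp8, 118581 for mt-Co1, 3862 for mt-Co2, 5378 for mt-Co3, 38464 for mt-Cytb, 31896 for mt-Nd1, 12551 for mt-Nd2, 206.7 for mt-Nd3, 14696 for mt-Nd4 and 313 CPM for mt-Nd4l. Only mt-Nd5 and mt-Nd6 of the 13 were without such a gap in EM-mGC. Among the nuclear subunits screened it stood at 174.4 CPM for Atp5g2, 557 for Atp5g3, 48.6 for Atp5k, 83.6 for Cox7a2, 116.2 for Cox7a2l, 44.7 for Ndufa5 and 154.8 CPM for Uqcrh. The sets did not cover every nuclear subunit. Ndufa13, Ndufa6 and Ndufa9 were outside them, and EM-mGC-3 was far above the other EM-mGC libraries there too. It stood at 74.3 CPM (others 44.5 to 51.7), 136.8 CPM (others 88.1 to 100.5) and 90.1 CPM (others 60.7 to 68.8). In Con-mGC, Con-mGC-4 was high for mt-Co2 at 903 CPM, Con-mGC-5 for mt-Nd4l at 134.2 CPM and Con-mGC-1 for Ndufa11 at 32.6 CPM. Cox8b and Cox8c were at 0 in all libraries of a group but 1, at 0.120 CPM in Con-mGC-4 and 0.191 CPM in EM-mGC-5 for Cox8b and 0.110 CPM in Con-mGC-5 for Cox8c.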

How the results depend on the processing

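No subunit was called in EM-mGC against Con-mGC by edgeR under any alternative run, and DESeq2 called 1 mitochondrial gene (mt-Atp6) and 0 nuclear ones. In EET against PBS, keeping every gene with at least 1 read gave 1 nuclear call (Ndufb7) and 3 mitochondrial calls (mt-Nd1, mt-Nd2 and mt-Nd6), where 327 of 26984 genes rose and 335 fell. Leaving out 1 library gave 0 to 6 nuclear and 0 to 3 mitochondrial calls, the highest without PBS-2, where 222 of 15351 genes rose and 214 fell. In PBS against EM-mGC leaving out 1 library gave 36 to 58 nuclear and 12 to 13 mitochondrial calls. Over all genes in these fits, 4689 to 5627 rose and 5984 to 6705 fell, of 16783 to 17894 tested. The mitochondrial median in that comparison was -3.36 when each library had to hold 10 reads, which drops the genes with fewest reads in PBS. It was -3.21 over the genes without a listed copy, mt-Atp8 among them. DESeq2 gave no adjusted p for mt-Nd3 and mt-Nd4l in that comparison or in EM-mGC against Con-mGC. Cox6b1 was no longer called in PBS against EM-mGC with DESeq2, RLE factors, library sizes without mitochondrial genes, the filter of 10 reads or the block.

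Leaving out each library moved the medians of EM-mGC against Con-mGC between 0.11 and 0.28 (nuclear) and 0.31 and 0.85 (mitochondrial), of EET against PBS between -0.10 and -0.02 and 0.07 and 0.27, and of PBS against EM-mGC between 0.11 and 0.24 and -4.39 and -3.64. The median of all genes in PBS against EM-mGC was -0.92 with every gene of at least 1 read, and -0.18 over protein-coding genes. With the filter on low counts these medians were -0.11 and 0.007. Nuclear directions there are relative to the TMM scale and not to these medians.

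Some log2 fold changes that were not called changed sign, and the cause was not tested. In EM-mGC against Con-mGC, leaving out 1 library gave -0.065 to 0.13 for Atp5a1, -0.13 to 0.059 for Atp5g3, -0.36 to 0.20 for Cox4i2, -0.23 to 0.045 for Cox7a1, -0.049 to 0.24 for Ndufa4l2, -0.053 to 0.68 for mt-Nd4 and -0.16 to 1.74 for mt-Nd4l. In EET against PBS it gave -0.031 to 0.047 for Atp5a1, -0.055 to 0.019 for Atp5g2, -0.052 to 0.027 for Atp5g3, -0.50 to 0.026 for Cox4i2, -0.13 to 0.022 for Cox6b1, -0.21 to 0.034 for Cox7a1, -0.085 to 0.037 for Ndufa4 and -0.053 to 0.017 for Sdha. In PBS against EM-mGC it gave -0.0072 to 0.19 for Atp5a1, -0.012 to 0.18 for Cox6a1 and -0.049 to 0.21 for Cox7a2l. The filter of 10 reads there gave -0.089 for Atp5a1, -0.041 for Atp5g2, -0.054 for Cox6a1 and -0.11 for Cox7a2l, and library sizes without mitochondrial genes gave -0.00090 for Cox7a2l.

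The methods call the cultures paired, but no source ties the replicate numbers to the pairs. The replicate number as a block was not taken as a pairing, since the correlation of same-numbered libraries, as deviations from their group means, was 0.0835, 0.152 and -0.0411 in culture, where 1 of 3 EET libraries correlated best with its own number, and -0.283 to 0.201 in the fresh groups. With the block, 0 subunits were called in EM-mGC against Con-mGC and in EET against PBS, where 168 genes rose and 173 fell (75 and 109 without it). In PBS against EM-mGC 41 nuclear and 12 mitochondrial genes were called with it, where 4867 of 17301 genes rose and 5939 fell. There mt-Nd5 lost its call at -0.64. The block changed the sign of Atp5g3 in EM-mGC against Con-mGC (-0.013) and of Atp5a1 (-0.051) and Cox7a2l (-0.045) in PBS against EM-mGC. Depth limits mt-Atp8, mt-Nd3, mt-Nd4l and Ndufa4l2 in culture.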
